A study of Mus musculus with 25 samples.

Results

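The genes described here are 33 imprinted genes of the mouse, chosen by symbol and grouped by the imprinted locus to which they belong, out of 55385 genes in the deposited files. An imprinted gene is expressed mainly from the chromosome inherited from 1 parent. A control region at each locus carries DNA methylation from only the egg or only the sperm, and this mark sets which neighbouring genes are active on each chromosome. Imprinted loci often pair a protein-coding gene with a long non-coding RNA, and many of their genes act on fetal growth, placenta and the insulin-like growth factor pathway. Loss of such marks and altered doses of these genes are known in many tumours. The reads were counted per gene and not per allele, so that all values below are total levels and say nothing of which parental copy was active.

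RNA-seq had been performed on cultured cells of 5 murine melanoma lines, with 5 biological replicates per line and 25 libraries in all. The cells were untreated and were taken at a confluency of 50%. WT31 came from Tyr::NrasQ61K/°; INK4a-/- mice, in which the tyrosinase promoter drives the mutant Nras. B16F10 luc2 is a commercial line that carries luciferase. RET was made from MT/RET mice, in which a metallothionein-I promoter drives RET. HCmel12 came from a primary melanoma of HGF-CDK4(R24C) mice. The mice behind D4M carried Tyr::CreER and BrafCA, so that tyrosinase-driven Cre switched on mutant Braf. The study grouped WT31, B16F10 luc2 and RET as HIM-melanoma, for high and intermediate hepatic metastatic efficiency, and D4M and HCmel12 as LM-melanoma, for low efficiency. Each genotype was represented by 1 line, and D4M and HCmel12 were grown in media of their own, so that genotype, medium and line cannot be told apart. The p-values therefore measure the spread between cultures of 1 line.

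Libraries held between 24199083 and 25843286 estimated counts. Levels are given as counts or as CPM, which are counts per 1000000 counts of a library whose total was scaled with TMM factors, as mean ± SD over 5 libraries. A count of 3 in a library, which equals between 0.111 and 0.138 CPM, was taken as the limit of detection, where estimates within 0.01 of 3 were read as 3. Of 10 melanocyte lineage markers, 9 or 10 exceeded 3 counts in every library of WT31, B16F10 luc2, RET and HCmel12, but only 3 did so in D4M. Their summed level lay between 160 and 326 CPM in D4M and between 14897 and 39947 CPM in the other lines. Of 6 fibroblast markers, 5 exceeded 3 counts in every D4M library, with Lum at most at 3 counts, and 3 did so in each other line. Their sum was 677 to 1323 CPM in D4M against 1.27 to 88.7 CPM elsewhere. All 6 immune markers were at or under 3 counts in WT31 and HCmel12, 5 of 6 in B16F10 luc2 and RET, and 4 of 6 in D4M. The summed level of 5 keratinocyte markers was at most 2.98 CPM in any library. That of 5 endothelial markers was 25.4 to 39.1 CPM in HCmel12 and at most 2.03 CPM in the other lines. Only 1 of these 5 endothelial markers exceeded 3 counts in every HCmel12 library, and Cdh5 and Emcn were at or under 3 counts in all of them. In such bulk samples fewer cells of a type and less RNA per cell cannot be told apart.

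Across the lines, 11 of the 33 genes exceeded 3 counts in every library of all 5 lines. These were Igf2r, Airn, Peg10, Sgce, Mest, Plagl1, Kcnq1ot1, Ube3a, Gnas, Zrsr1 and Impact. In 10 genes no line exceeded 3 counts in every library, namely Igf2, Meg3, Mirg, Rtl1, Zim1, Usp29, Nnat, Ndn, Magel2 and Slc38a4. The remaining 12 genes were detected in some lines only. At least 1 line thus passed this measure in 23 of the 33 genes. Of these 23, D4M had 22, B16F10 luc2 had 16, WT31 had 15, HCmel12 had 14 and RET had 13. Among all 16701 genes detected in this way in at least 1 line, the shares were alike, from 80.5% in B16F10 luc2 to 82.7% in D4M. Rian, Dlk1, Peg3, Kcnq1 and Snrpn passed this limit in D4M alone, and no imprinted gene of the list passed it in another line alone. Of all 16701 genes, 4.94% were detected in D4M alone and between 1.27% and 2.85% in each other line alone. D4M is also the line in which the fibroblast markers were high and the melanocyte markers low, and the part of these in the result was not tested.

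**Figure D1:**
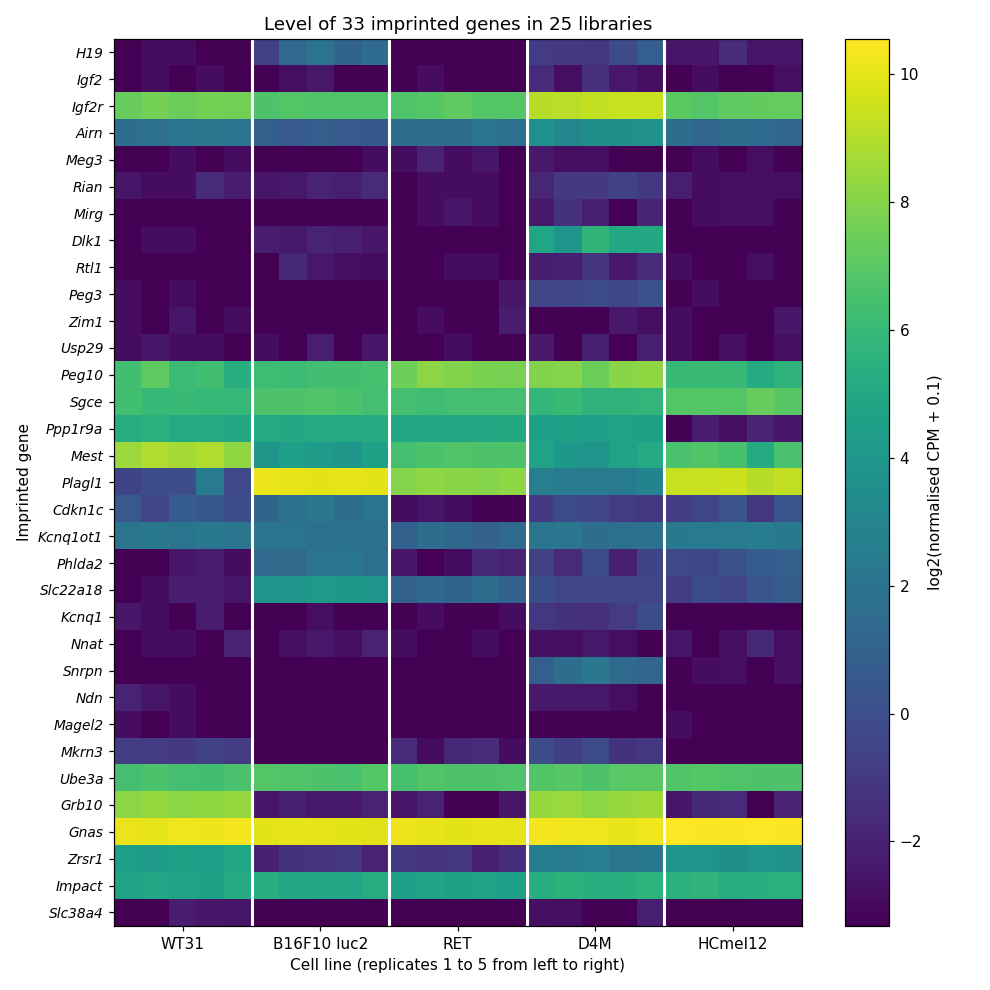
Colour shows the level of each of the 33 imprinted genes (rows) in each of the 25 libraries (columns, 5 per line) as log2 of normalised CPM plus 0.1. Rows such as Gnas, Igf2r and Ube3a stay bright in every line, Grb10 is bright in WT31 and D4M only, and Dlk1, Snrpn and Peg3 exceed 3 counts in every library of D4M alone.

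A filter on low counts kept 21 of the 33 genes for testing, and the other 12 were left untested. Of the 21 tested genes, 21 differed between the 5 lines in an F test of limma at an adjusted p under 0.05, which was also the case for 96.9% of the 15258 genes tested. A gene detected in a single line passed the filter through that line and had to differ, so that this count describes the genes and supports nothing further. The line means of 13 of the 21 genes spanned at least 10-fold, where 26.9% of all genes tested did so. This count too includes genes that passed the filter through a single line, and it was 5 of 16 genes tested on log2(TPM + 1) and 2 of 10 genes tested with at least 10 counts in every library. The 26.9% belongs to the main filter, and no share over all genes is given for these alternatives. Restricted to genes with over 3 counts in all 25 libraries, 3 of 11 imprinted genes had such a range, and 9.02% of 11340 genes did so. The 3 were Mest, Plagl1 and Zrsr1. Zrsr1 passed this limit narrowly, with a lowest count of 3.10 in RET and 3.57 in B16F10 luc2. Of the 23 imprinted genes with over 3 counts in every library of some line, 10 were at or under 3 counts in every library of another line, against 19.6% of all genes so detected. This last count was defined after the values had been seen.

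The Igf2r locus on chromosome 17 holds Igf2r (chr17:12682406-12769664), the receptor that takes up IGF2 and lysosomal enzymes and is expressed from the maternal copy. It also holds Airn (chr17:12741311-12860136), a long non-coding RNA of the opposite strand that starts within Igf2r and silences it on the paternal copy. Both genes were highest in D4M and lowest in B16F10 luc2. The 250 bases before the RefSeq start of each gene (GRCm38.p6) are shown because both genes had the same extreme lines, and capitals mark each CG dinucleotide. The Igf2r window (chr17:12769707-12769956, minus strand) held 27 CG and the Airn window (chr17:12741061-12741310, plus strand) held 2, where the median over 32851 windows of RefSeq promoters was 6.
Igf2r: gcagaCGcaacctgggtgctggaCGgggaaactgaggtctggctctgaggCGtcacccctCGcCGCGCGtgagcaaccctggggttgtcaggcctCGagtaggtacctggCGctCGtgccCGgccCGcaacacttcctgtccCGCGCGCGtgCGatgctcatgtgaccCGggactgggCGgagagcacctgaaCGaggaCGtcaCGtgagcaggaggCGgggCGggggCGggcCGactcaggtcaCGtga
Airn: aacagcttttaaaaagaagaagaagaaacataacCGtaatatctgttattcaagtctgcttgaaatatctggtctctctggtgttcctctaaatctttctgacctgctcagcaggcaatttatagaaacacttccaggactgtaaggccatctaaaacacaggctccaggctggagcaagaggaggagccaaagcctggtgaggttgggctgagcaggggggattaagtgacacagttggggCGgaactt

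Igf2r counts were 11743, 12335, 13932, 15282 and 15825 in the D4M libraries and at most 5366 in any library of another line. Igf2r stood at 612 ± 66.5 CPM in D4M, 187 ± 17.1 in WT31, 139 ± 15.2 in HCmel12, 121 ± 13.4 in RET and 107 ± 4.69 in B16F10 luc2 (SD, n = 5). D4M exceeded B16F10 luc2 by 5.73-fold (log2 fold change of B16F10 luc2 against D4M -2.51 ± 0.08 SE, adjusted p = 1.95e-19, limma). B16F10 luc2 and RET did not differ past the threshold, with a log2 difference of B16F10 luc2 against RET between -0.34 and -0.01 (95% interval without adjustment, adjusted p = 0.0905, limma).

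Airn counts were 270, 201, 267, 256 and 308 in D4M and between 33 and 114 in the other 20 libraries, so that D4M did not overlap with any line. The Airn level averaged 11.5 ± 1.6 CPM in D4M, 3.81 ± 0.52 in WT31, 3.33 ± 0.41 in RET, 2.70 ± 0.44 in HCmel12 and 1.5 ± 0.2 in B16F10 luc2. D4M exceeded B16F10 luc2 by 7.69-fold (log2 fold change of B16F10 luc2 against D4M -2.92 ± 0.16 SE, adjusted p = 3.36e-15, limma). Between WT31 and RET no difference passed the threshold (adjusted p = 0.247). The counting is not stated to use strand, but the annotated transcripts of Igf2r shared none of their 31-base sequences with another gene on either strand, Airn included. These were GENCODE M21 transcripts, where the Airn identifier has another version than in the deposited files.

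**Figure D2:**
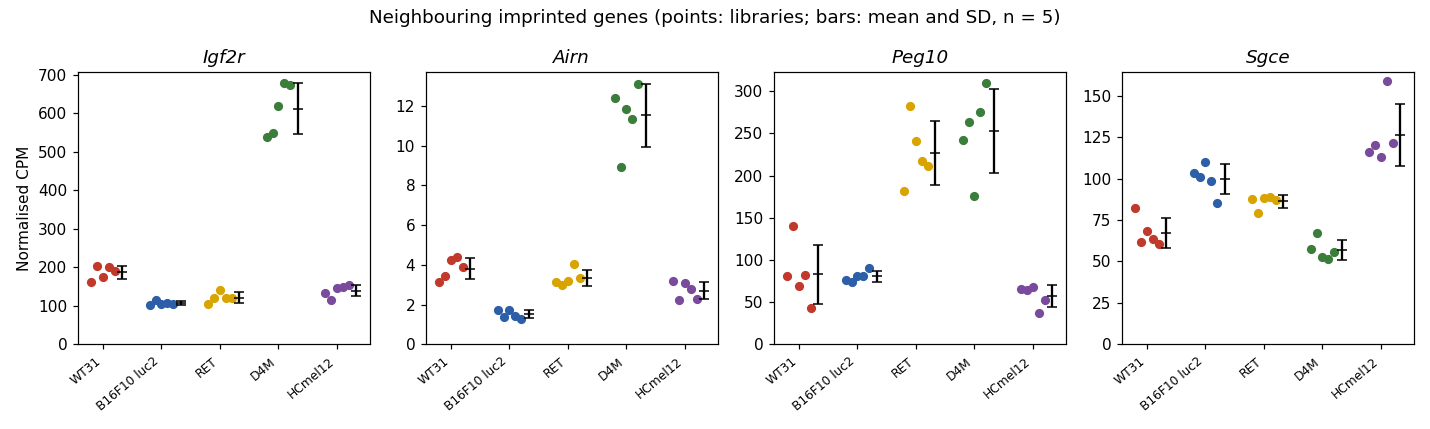
Normalised CPM of Igf2r, Airn, Peg10 and Sgce in each library (points) with mean and SD over 5 libraries (black bars) in each line. Igf2r and Airn were both highest in D4M and lowest in B16F10 luc2, whereas D4M had the highest mean of Peg10 and the lowest of Sgce, and HCmel12 the reverse.

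The Peg10 locus on chromosome 6 holds Peg10 (chr6:4747306-4760517), a gene derived from a retrotransposon that the placenta requires, and Sgce (chr6:4674350-4747207), which encodes a sarcoglycan of the cell membrane. Both are expressed from the paternal copy and start head to head, with 98 bases between them. Their lines were ordered differently. Peg10 was highest in D4M at 253 ± 49.8 CPM and in RET at 227 ± 37.9 CPM, which did not differ past the threshold (adjusted p = 0.505, log2 difference of RET against D4M between -0.54 and 0.24). It was lower in WT31 at 82.9 ± 35.3 CPM, in B16F10 luc2 at 80.4 ± 6.21 CPM and in HCmel12 at 57.5 ± 13.1 CPM. D4M exceeded HCmel12 by 4.40-fold (log2 fold change 2.15 ± 0.21 SE, adjusted p = 7.16e-10, limma).

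Sgce was highest in HCmel12 at 126 ± 18.7 CPM and lowest in D4M at 56.8 ± 6.19 CPM. The log2 fold change of D4M against HCmel12 was -1.15 ± 0.09 SE (adjusted p = 2.01e-11, limma), and the libraries of both lines did not overlap. Replicate 4 of HCmel12 stood apart from the other libraries of that line in Sgce (159 CPM), and it also had the lowest Peg10 level of the line (36.6 CPM). Without it Sgce in HCmel12 was 118 ± 3.95 CPM (n = 4) and the log2 fold change against D4M was -1.05 (adjusted p = 1.82e-11, limma).

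Ppp1r9a (chr6:4902917-5165661), further along the same locus, encodes neurabin, which binds actin and protein phosphatase. It held between 795 and 1237 counts in every library of WT31, B16F10 luc2 and RET, between 482 and 577 in D4M, and 0, 3, 1, 4 and 2 in HCmel12. The levels were 38.5 ± 5.14, 35.5 ± 1.39, 32.9 ± 1.19, 23.4 ± 1.56 and 0.0805 ± 0.0635 CPM in that order. WT31 exceeded HCmel12 by 479-fold, with a counting interval of 260 to 998 (95%, exact, counting error only). The log2 fold change was 8.92 ± 0.39 SE (adjusted p = 8.53e-17, limma). D4M, at 290-fold above HCmel12 (counting interval 158 to 606), lay below each of the HIM-melanoma lines by 1.41-fold to 1.65-fold.

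Grb10 (chr11:11930508-12038683) encodes an adaptor that binds the insulin and IGF1 receptors and dampens their signal, and restricts fetal growth from the maternal copy. Among the tested imprinted genes it had the widest range between lines. Its counts were 7476, 8665, 7570, 7788 and 8729 in WT31 and 7131, 7942, 6475, 7536 and 8833 in D4M. In B16F10 luc2 they were 2, 3, 2, 2 and 4, in RET 2, 4, 0, 0 and 2, and in HCmel12 2, 5, 6, 0 and 4. Every library of WT31 and D4M thus held at least 6475 counts and every other library at most 6. WT31 (306 ± 19.4 CPM) and D4M (336 ± 32.7 CPM) did not differ past the threshold (adjusted p = 0.153, log2 difference of WT31 against D4M between -0.30 and 0.03). D4M exceeded RET by 5510-fold, with a counting interval from 2741-fold to 12512-fold, and HCmel12 by 2451-fold, with an interval from 1533-fold to 4214-fold. The adjusted p-values of these comparisons were 1.58e-17 and 5.74e-18 (limma). Without replicate 2 of RET the former fold was 8598. None of the 31-base sequences of Grb10 transcripts occurred in another gene on either strand. The lines with high and low Grb10 did not follow the split into HIM-melanoma and LM-melanoma.

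Plagl1 (chr10:13060504-13131694) encodes a zinc finger transcription factor that can halt the cell cycle and regulates other imprinted genes, and is expressed from the paternal copy. Both lines with high Grb10 were the lowest for Plagl1. Counts lay between 24122 and 28734 in B16F10 luc2, between 13063 and 17832 in HCmel12 and between 6557 and 8155 in RET. In D4M they were 131, 118, 111, 116 and 176, and in WT31 16, 24, 22, 141 and 20. The means were 1059 ± 54.6, 641 ± 73.6, 280 ± 18.9, 5.77 ± 1.05 and 1.71 ± 2.08 CPM in that order. Each of the 10 comparisons of lines was significant, and B16F10 luc2 exceeded WT31 by 620-fold (log2 fold change of WT31 against B16F10 luc2 -9.84 ± 0.30 SE, adjusted p = 8.19e-20, limma).

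Replicate 4 of WT31 carried Plagl1 at 5.42 CPM, within the D4M libraries and above the other WT31 libraries at 0.606 to 0.912 CPM. Without it WT31 stood at 0.777 ± 0.135 CPM (n = 4). B16F10 luc2 then exceeded WT31 by 1362-fold. The log2 fold change of WT31 against D4M was then -2.86 ± 0.28 SE (adjusted p = 9.78e-10), and with it -2.31 (adjusted p = 1.01e-06, limma).

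**Figure D3:**
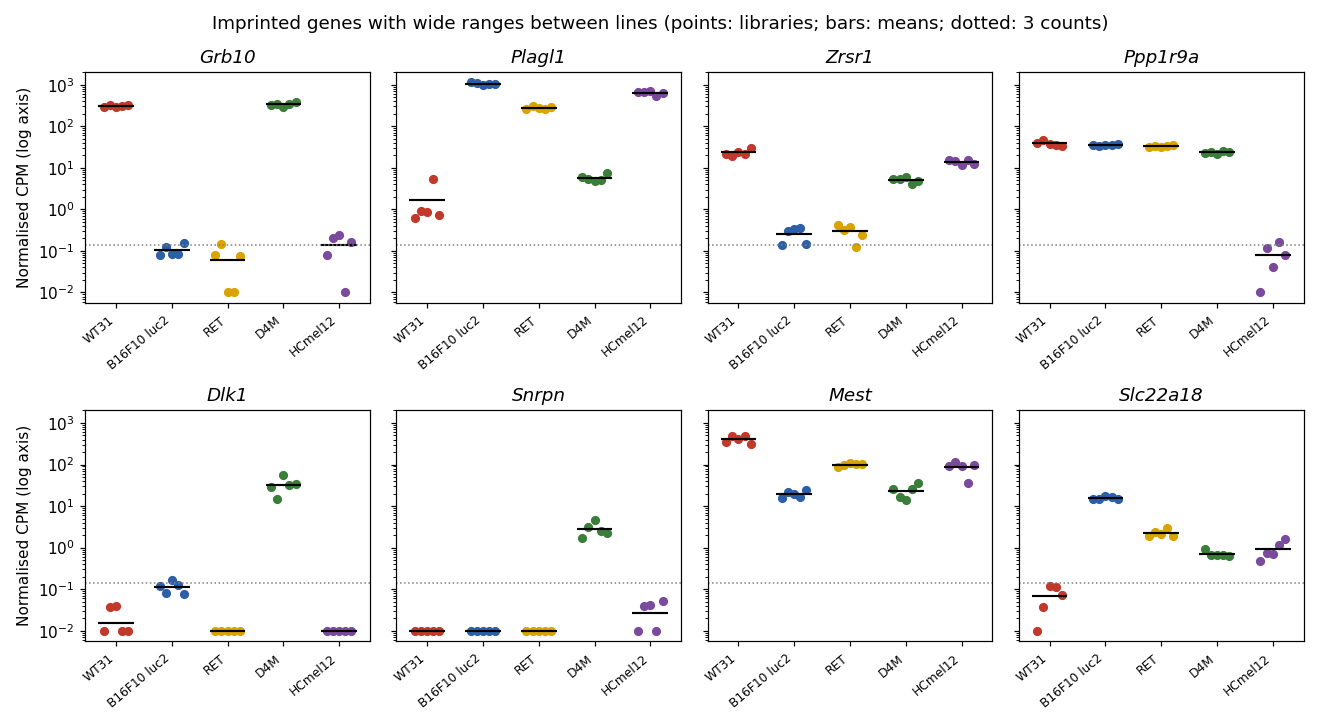
Normalised CPM on a log axis for 8 imprinted genes, with a point for each library, a bar at each mean and a dotted line at the highest level that 3 counts represent (0.138 CPM). Libraries at 0 are drawn at 0.01. Grb10 splits the lines into WT31 and D4M above 250 CPM and the other lines near the dotted line, and Plagl1 is high in B16F10 luc2, RET and HCmel12. Snrpn lies above the dotted line in D4M only, and Dlk1 in every D4M library and 1 library of B16F10 luc2.

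Zrsr1 (chr11:22972005-22976496) is a retrogene for a splicing factor that lies within Commd1 (chr11:22896136-22982382) on the opposite strand, and is expressed from the paternal copy. Its levels were 23.5 ± 4.35 CPM in WT31, 14.1 ± 1.70 in HCmel12, 5.14 ± 0.76 in D4M, 0.294 ± 0.114 in RET and 0.257 ± 0.103 in B16F10 luc2. WT31 counts were 573, 517, 605, 561 and 836, whereas B16F10 luc2 counts were 3.6, 7.3, 8.2, 8.6 and 3.9. The WT31 level was 91.1-fold that of B16F10 luc2, with a counting interval of 64.3 to 133 (adjusted p = 2.41e-15, limma). B16F10 luc2 and RET were not distinguished (adjusted p = 0.860, log2 difference of B16F10 luc2 against RET between -1.01 and 0.77). The host gene Commd1, a member of a protein sorting complex, was at 35.5 ± 2.82 CPM in WT31 and between 39.6 and 46.1 CPM on average in the other 4 lines. The Commd1 libraries lay between 32.4 and 49.3 CPM over all lines. Of the 31-base sequences of Zrsr1 7.97% also occurred in Commd1 on the opposite strand and 0.157% in the paralog Zrsr2, and 8.19% occurred in any other gene on either strand.

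Mest (chr6:30723547-30748465), a paternally expressed gene for a hydrolase of mesodermal tissue and fat, was detected everywhere and its highest and lowest line means differed by 20.7-fold. Its CPM values were 351, 485, 408, 481 and 306 in WT31 and 15.9, 22.3, 19.2, 16.1 and 24.6 in B16F10 luc2. WT31 at 406 ± 78.8 CPM exceeded B16F10 luc2 at 19.6 ± 3.82 CPM by 20.7-fold (log2 fold change 4.37 ± 0.26 SE, adjusted p = 3.10e-14, limma). D4M, at 23.6 ± 8.59 CPM, was not distinguished from B16F10 luc2 (adjusted p = 0.526, log2 difference of B16F10 luc2 against D4M between -0.79 and 0.37). RET was at 99.5 ± 8.37 CPM and HCmel12 at 86.4 ± 28.8 CPM, where replicate 4 held 36.7 CPM and the other 4 libraries between 92.8 and 112 CPM. Without this library the HCmel12 mean was 98.8 ± 8.86 CPM (n = 4) and the log2 fold change of RET against HCmel12 moved from 0.29 to 0.01 (adjusted p = 0.232 and 0.967, limma). Of the 31-base sequences of Mest 22% also occurred on the opposite strand in Copg2, a gene of vesicle coats, which was highest in RET at 158 ± 8.54 CPM and lowest in D4M at 43.6 ± 5.44 CPM.

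The Kcnq1 locus on chromosome 7 holds maternally expressed genes that restrain growth of fetus and placenta, and the paternally expressed antisense RNA Kcnq1ot1, which silences them in cis. Cdkn1c (chr7:143458339-143461050) encodes the cell cycle inhibitor p57, Phlda2 (chr7:143501545-143503150) a lipid-binding protein of the placenta, and Slc22a18 (chr7:143473736-143499334) a membrane transporter. All 3 were highest in B16F10 luc2. Phlda2 and Slc22a18 lie on opposite strands, with 2210 bases between the ends of the genes and not between their starts. Both had their lowest mean in WT31 (for Phlda2 not distinguished from RET, adjusted p = 0.366, limma). Their windows before the RefSeq start are therefore shown, and this start lies within the gene spans given above. The Slc22a18 window (chr7:143473539-143473788, plus strand) held no CG and the Phlda2 window (chr7:143502525-143502774, minus strand) held 21. At least 19 CG were found in 19.7% of all windows.
Slc22a18: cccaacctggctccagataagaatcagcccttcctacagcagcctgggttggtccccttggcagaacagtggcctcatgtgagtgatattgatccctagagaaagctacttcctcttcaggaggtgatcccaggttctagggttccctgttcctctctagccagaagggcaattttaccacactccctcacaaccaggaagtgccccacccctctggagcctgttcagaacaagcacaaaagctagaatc
Phlda2: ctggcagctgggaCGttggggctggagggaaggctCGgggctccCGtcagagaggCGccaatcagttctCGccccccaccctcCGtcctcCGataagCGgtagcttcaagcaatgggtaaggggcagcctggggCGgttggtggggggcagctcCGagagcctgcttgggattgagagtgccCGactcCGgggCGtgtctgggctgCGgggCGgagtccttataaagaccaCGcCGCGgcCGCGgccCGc

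Slc22a18 counts were 368, 361, 420, 401 and 389 in B16F10 luc2 and 0, 1, 3, 3 and 2 in WT31. RET libraries held 48 to 73 counts, HCmel12 libraries 12 to 39 and D4M libraries 15 to 20. B16F10 luc2 reached 15.7 ± 1.19 CPM, 7.01-fold above RET at 2.23 ± 0.43 CPM (log2 fold change 2.81 ± 0.17 SE, adjusted p = 2.90e-13, limma). D4M and HCmel12 were not distinguished (adjusted p = 0.432, log2 difference of D4M against HCmel12 between -0.88 and 0.33).

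Phlda2 counts were 64, 64, 97, 104 and 88 in B16F10 luc2 and 18, 18, 24, 38 and 45 in HCmel12. D4M held 12, 5, 17, 3 and 14 counts, RET at most 5 and WT31 at most 3. B16F10 luc2 (3.37 ± 0.78 CPM) exceeded HCmel12 (1.15 ± 0.50 CPM) by 2.92-fold (adjusted p = 0.00011, limma).

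Cdkn1c counts were 53, 89, 106, 73 and 107 in B16F10 luc2 and 1, 2, 1, 0 and 0 in RET, with 9 to 39 in the libraries of the other 3 lines. The level of 3.45 ± 0.91 CPM in B16F10 luc2 was 3.02-fold that of WT31 (adjusted p = 6.67e-06) and 113-fold that of RET, with a counting interval of 43.1 to 409 (adjusted p = 1.26e-10, limma). Without replicate 2 of RET the latter fold was 175. Cdkn1c and Slc22a18 thus differed in which line held least, since RET was the second highest line for Slc22a18. Of the 31-base sequences of Cdkn1c 27.2% also occurred on the opposite strand in the gene model Gm44732, which held at most 1.33 counts in any library.

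Kcnq1ot1 (chr7:143203458-143296549), which lies within Kcnq1 on the opposite strand, varied far less. It stood at 5.18 ± 0.41 CPM in HCmel12, 4.30 ± 0.32 in WT31, 3.64 ± 0.29 in B16F10 luc2, 3.64 ± 0.53 in D4M and 2.41 ± 0.46 in RET. HCmel12 exceeded RET by 2.15-fold (log2 fold change of RET against HCmel12 -1.11 ± 0.13 SE, adjusted p = 1.87e-08, limma). B16F10 luc2, where Cdkn1c, Phlda2 and Slc22a18 were highest, did not differ in Kcnq1ot1 from D4M or WT31 past the threshold (adjusted p = 0.967 and 0.0722). It was 1.51-fold above RET (adjusted p = 0.000506) and 1.42-fold below HCmel12 (adjusted p = 0.000372, limma). Kcnq1 (chr7:143106362-143427042), which encodes a potassium channel, was not tested. It held 8, 7, 6, 10 and 21 counts in D4M and at most 3 in any other library. Of its 31-base sequences 2.4% also occurred in Kcnq1ot1 on the opposite strand, and a read from these cannot be assigned without strand.

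At the H19-Igf2 locus on chromosome 7, H19 (chr7:142575529-142578143) is a maternally expressed non-coding RNA that holds the miRNA gene Mir675. Igf2 (chr7:142650766-142666816) encodes the paternally expressed fetal growth factor, and both compete for the same enhancers. H19 was low in all lines and differed between them. It held 13, 61, 95, 52 and 73 counts in B16F10 luc2, 10, 9, 8, 18 and 40 in D4M, 2, 2, 6, 2 and 2 in HCmel12, at most 1 in WT31 and 0 in every RET library. B16F10 luc2 (2.38 ± 1.23 CPM) was at least 19.8-fold above RET, computed against 3 counts in a library (adjusted p = 2.35e-08). It was 3.20-fold above D4M (0.743 ± 0.564 CPM, adjusted p = 0.0018, limma), although the lowest B16F10 luc2 library lay within the range of D4M. Igf2 did not exceed 6 counts in any of the 25 libraries and was not tested. Of its 31-base sequences 61.9% also occur on the same strand in the gene model Gm49394, which was at 0 in all libraries. The order of H19 across lines had no counterpart in Igf2 that could be measured at this depth.

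The Dlk1-Meg3 locus on chromosome 12 pairs the paternally expressed Dlk1 and Rtl1 with the maternally expressed non-coding RNAs Meg3, Rian and Mirg, which carry many miRNAs and snoRNAs. Dlk1 (chr12:109452823-109463336) encodes a membrane ligand related to those of Notch that holds progenitor cells undifferentiated. Its counts were 633, 341, 1228, 714 and 787 in D4M, 3, 2, 4, 3 and 2 in B16F10 luc2, at most 1 in WT31 and 0 in every library of RET and HCmel12. D4M (32.8 ± 14.2 CPM) exceeded B16F10 luc2 by 289-fold, with a counting interval of 173 to 532 (adjusted p = 1.20e-10). It was at least 273-fold above RET and at least 269-fold above HCmel12 (adjusted p = 3.93e-11 and 5.02e-11, limma).

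The non-coding RNAs of that locus did not accompany Dlk1 at a comparable level. Rian (chr12:109603940-109661716) held 4, 9, 9, 12 and 9 counts in D4M and at most 6 in any other library. Mirg (chr12:109729764-109749460) reached at most 7 counts, in D4M, and Meg3 (chr12:109541001-109571726) at most 4, in RET. Rtl1 (chr12:109589193-109600330), a retrotransposon-derived gene required in placenta, reached at most 7.55 counts. Meg3, Rian, Mirg and Rtl1 were not tested.

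The Snrpn locus on chromosome 7, which corresponds to the human Prader-Willi and Angelman region, holds the paternally expressed Snrpn, Ndn, Magel2 and Mkrn3 and the ubiquitin ligase gene Ube3a, which is imprinted in neurons only. Snrpn (chr7:59982495-60140219), a component of spliceosomes, held 37, 70, 101, 58 and 51.6 counts in D4M, 0 in every library of WT31, B16F10 luc2 and RET, and 0, 1, 1, 0 and 1.25 in HCmel12. D4M (2.82 ± 1.08 CPM) was at least 24.2-fold above WT31, at least 22.7-fold above B16F10 luc2 and at least 23.5-fold above RET (adjusted p = 4.59e-15, 5.07e-15 and 4.43e-15, limma). Of its 31-base sequences 34.5% also occur in other genes on either strand, chiefly Gm38393 (23.7%), which held at most 3.01 counts in any library.

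Mkrn3 (chr7:62417593-62420139), a ring finger protein that restrains puberty, held 12, 12, 10, 14 and 12 counts in WT31 and 19, 11, 18, 7 and 9 in D4M. RET held 1 to 6 counts, and B16F10 luc2 and HCmel12 held 0 in every library. WT31 and D4M did not differ past the threshold (adjusted p = 0.535), and D4M was at least 4.59-fold above B16F10 luc2 (adjusted p = 2.48e-10, limma). Ndn (chr7:62346569-62350262), a growth suppressor of neurons, reached at most 4 counts and Magel2 (chr7:62377010-62381640), a regulator of protein recycling, at most 1. Genes of this locus were therefore not present in the same lines, since Mkrn3 was found in WT31 without Snrpn.

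Ube3a (chr7:59228750-59311536) had the narrowest range of the 21 tested genes. It stood at 119 ± 11.7 CPM in D4M, 108 ± 6.94 in HCmel12, 107 ± 9.31 in B16F10 luc2, 102 ± 6.83 in RET and 90.5 ± 6.75 in WT31. D4M exceeded WT31 by 1.31-fold (log2 fold change of WT31 against D4M -0.39 ± 0.07 SE, adjusted p = 2.69e-05, limma). This call was lost when counts were scaled by library size alone (adjusted p = 0.053) and on log2(TPM + 1) (adjusted p = 0.554), and the smaller difference of RET against D4M reversed on TPM values (log2 fold change -0.22 on counts and 0.28 on TPM). Of the 31-base sequences of Ube3a 26.5% also occurred in other genes on either strand, and Gm44560, with the largest share on the opposite strand at 9.33%, held at most 1.18 counts in any library.

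At the Peg3 locus on chromosome 7, Peg3 (chr7:6703892-6730431), a paternally expressed zinc finger gene of maternal behaviour and apoptosis, held 14, 15, 18, 16 and 24 counts in D4M and at most 2 in any other library. D4M (0.768 ± 0.154 CPM) was at least 6.18-fold above B16F10 luc2, where every library was at 0 (adjusted p = 2.00e-12, limma). Its neighbours were not accompanied by such counts. Usp29 (chr7:6730578-6967219), a deubiquitinase gene that starts head to head with Peg3 with 146 bases between them, and the zinc finger gene Zim1 (chr7:6671269-6696450) reached at most 3 counts in any library.

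Gnas (chr2:174284320-174346744) encodes the stimulatory G protein subunit that links receptors such as that of melanocortin to cAMP, and was the most abundant gene of the list. Its TPM, which corrects for length and serves here to compare genes, was 1671 ± 47.4 in HCmel12 and 1186 ± 28.6 in B16F10 luc2. Plagl1 followed in B16F10 luc2 at 333 ± 21.2 TPM and Mest in WT31 at 264 ± 49.2 TPM. In CPM, Gnas was 1441 ± 39.4 in HCmel12, 1202 ± 58.4 in D4M, 1173 ± 82.4 in WT31, 1092 ± 50.4 in RET and 1016 ± 26.8 in B16F10 luc2. HCmel12 exceeded B16F10 luc2 by 1.42-fold (log2 fold change of B16F10 luc2 against HCmel12 -0.50 ± 0.05 SE, adjusted p = 5.08e-10, limma). The difference of RET against D4M was -0.14 in log2 and reversed to 0.06 when counts were scaled by library size alone. Counts per gene do not separate the imprinted promoters of Gnas from its biallelic one. Of the 31-base sequences of Gnas 11.6% also occurred on the opposite strand in the gene model Gm20721, whose line means lay between 1.31 and 1.95 CPM.

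Impact (chr18:12955852-12992950), a paternally expressed regulator of the amino acid starvation response, was at 45.0 ± 5.19 CPM in HCmel12 and 44.5 ± 4.91 in D4M. B16F10 luc2 stood at 34.0 ± 6.21, WT31 at 28.7 ± 5.09 and RET at 24.6 ± 1.79 CPM. D4M and HCmel12 were not distinguished (adjusted p = 0.927, log2 difference of D4M against HCmel12 between -0.22 and 0.20). Nnat (chr2:157560078-157562522), a neuronal proteolipid of the endoplasmic reticulum, reached at most 5 counts in any library. Slc38a4 (chr15:96994820-97055956), an amino acid transporter of liver and placenta, reached at most 3. Neither was tested.

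In the comparisons of 2 lines, 157 of 210 comparisons of the 21 tested genes passed the threshold, and in 141 of these the libraries of both lines did not overlap. No share over all genes is given for this overlap, so that 141 describes these genes only. The counts of imprinted genes called are given beside the share of all 15258 genes called in the same comparison. For WT31, 14 of 21 were called against B16F10 luc2 (background 72.8%), 13 against RET (73.2%), 17 against D4M (76.1%) and 16 against HCmel12 (70.3%). For B16F10 luc2, 12 were called against RET (51.4%), 18 against D4M (77.6%) and 16 against HCmel12 (69.1%). RET differed from D4M in 20 genes (77.1%) and from HCmel12 in 14 (67.2%), and D4M from HCmel12 in 17 (72.5%). The share of imprinted genes called lay below that of all genes in 3 comparisons and above it in 7, and these comparisons share lines.

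**Figure D4:**
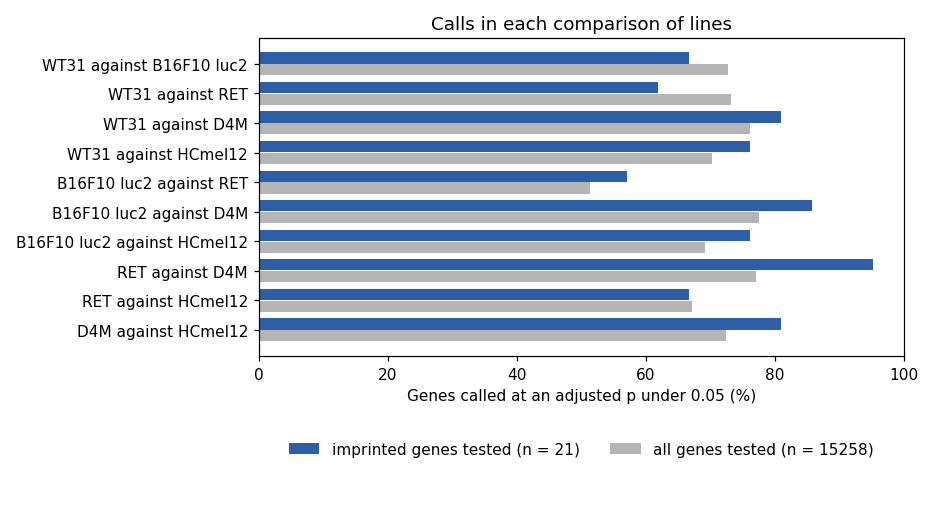
Percentage of genes called at an adjusted p under 0.05 (x axis) in each of the 10 comparisons of lines for the tested imprinted genes (blue) and all tested genes (grey). The blue bar reaches 95.2% for RET against D4M and 57.1% for B16F10 luc2 against RET, and in WT31 against B16F10 luc2, WT31 against RET and RET against HCmel12 it is shorter than the grey bar.

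The study asked which genes separate HIM-melanoma from LM-melanoma, and a gene was called commonly regulated when all 6 comparisons of a HIM with an LM line were significant in the same direction. One gene was higher in HIM-melanoma, Ppp1r9a, where 6.56% of all tested genes were. Its log2 fold changes lay between 0.49 and 0.71 against D4M and between 8.70 and 8.92 against HCmel12. With a log2 fold change of 1 as a limit Ppp1r9a was no longer called in all 6, and with at least 10 counts required in every library it was not tested. One gene was lower, Impact, where 6.4% of all tested genes were, with log2 fold changes from -0.40 to -0.86. Impact was no longer called in all 6 comparisons with scaling by library size alone, on log2(TPM + 1) without a filter, or with a log2 fold change of 1 as a limit. Snrpn joined it on counts without a filter and with a replicate block, although it held at most 1.25 counts in any HCmel12 library. Neither share, 4.76% of the 21 genes each, lay above the background. The other 19 tested genes were not called in the same direction in all 6 comparisons. Some of them, such as H19 and Igf2r, were called in all 6 but not in the same direction.

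Further imprinted genes, listed from general knowledge, were described in the same way. Of 55 such genes 35 were tested, 35 passed the F test (96.9% of all tested genes) and 13 had a range of at least 10-fold (26.9% of all tested genes). Their median range was 1.78 in log2, and that of all tested genes was 1.41. The 3 with the widest range were highest in D4M. Atp10a, a lipid flippase gene, reached 70.1 ± 6.17 CPM in D4M and 7.66 ± 1.48 in HCmel12 and was at 0 in B16F10 luc2 and RET. Rasgrf1, an exchange factor for Ras, was at 55.5 ± 5.54 CPM in D4M, while the highest count in another line was 2.02. Tnfrsf23, a decoy receptor, reached 86.6 ± 15.9 CPM in D4M and 0.719 ± 0.257 in WT31. Pon2 was commonly higher in HIM-melanoma (6.56% of all tested genes), and Nap1l4, Atp10a and Htr2a were commonly lower (6.4% of all tested genes).

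Of 26 listed factors that keep or remove imprints 22 were tested and 22 passed the F test, against 96.9% of all tested genes. A range of at least 10-fold was found in 1, against 26.9% of all tested genes, and the median range was 0.83 in log2. Zfp57, which binds methylated imprinting control regions, had the widest range, from 0.152 ± 0.062 CPM in WT31 to 2.28 ± 0.53 in B16F10 luc2 (log2 fold change of WT31 against B16F10 luc2 -3.79, adjusted p = 1.13e-10, limma). Dnmt3b, a de novo DNA methyltransferase, was at 11.3 ± 0.96, 11.5 ± 1.14 and 11.8 ± 0.43 CPM in WT31, B16F10 luc2 and RET, at 5.75 ± 0.44 in HCmel12 and at 1.32 ± 0.37 in D4M. Tet1, which oxidises methylated cytosine, ranged from 7.80 ± 0.32 CPM in WT31 to 0.889 ± 0.279 in D4M. Dnmt3b and Tet3 were commonly higher in HIM-melanoma (background 6.56%), and 0 genes of the list were commonly lower. DNA methylation itself was not measured.

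Of 24 genes of the insulin-like growth factor pathway 19 were tested and 19 passed the F test, where 96.9% of all tested genes passed. A range of at least 10-fold was found in 16, where 26.9% of all tested genes had one, and the median range was 7.56 in log2. As above, genes expressed in a single line had to show a wide range. Igfbp3, which sequesters IGFs, had 104910 to 132045 counts in D4M, 92.5 ± 13.9 CPM in WT31 and no more than 33 counts in the remaining libraries. Igfbp2 was at 27.8 ± 10.7 CPM in WT31 and at most at 2 counts elsewhere. Stc1, which inhibits the protease that frees IGFs, reached 36.7 ± 7.16 CPM in D4M and 14.8 ± 8.95 in HCmel12, and stayed at or under 4 counts in HIM-melanoma. Stc1, Stc2 and Igfbp5 were commonly lower in HIM-melanoma (background 6.4%), and 0 genes were commonly higher.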

How the data were processed

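RNA-seq of 25 libraries from 5 murine melanoma lines was analysed. According to the labels and the paper's methods the authors trimmed reads with Trim Galore (0.6.4), assigned them to GRCm38.p6 with kallisto and deposited estimated counts per gene. The deposited TPM values are scaled by length to a total of 1000000, and those of D4M replicate 1 were not used here, which leaves 24 libraries. Kallisto divides reads among transcripts, and the annotation release, strandedness and the step to genes are not given in the sources used here. The labels and the design text name different sequencers. A further allele of the mice behind D4M is not reported here.

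Estimated counts were rounded, filtered with filterByExpr (edgeR 4.0.16), which kept 15258 genes, scaled with TMM factors and fitted with voom and limma (limma 3.58.1, R 4.3.3) with a mean per line over all 25 libraries. Within each comparison the Benjamini-Hochberg adjustment was applied to the p-values, with a threshold of 0.05. The filter, the scaling and the rounding were chosen here. Folds are ratios of mean CPM. Against a line at 0 in all libraries they were computed against 3 counts in each library and are lower bounds. Where a line held fewer than 50 counts in sum, an exact binomial interval of the pooled counts is given. Intervals and floors cover counting error only.

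The genes, lists and tests were chosen with earlier results of these data known. All 33 genes are named, with the 3 genes of widest range of each other list. Genes named outside this rule are the commonly regulated genes of these lists and neighbours of the imprinted genes. Gene coordinates are those of GENCODE M21 (GRCm38), which held 29 of the 33 identifiers with the same version. Those of Airn, Rian, Peg3 and Gnas had another version. Promoter windows are from RefSeq (GRCm38.p6) and matched 26 genes. They were searched for CG and for TGCCGC on both strands, the core of the ZFP57 motif, which 5 of the 42 windows of these genes and 8.68% of all windows held. Shared 31-base sequences were counted over GENCODE M21 transcripts, on both strands, since kallisto without a strand setting takes reads of either. The procedure was tested on simulated data. As alternatives, DESeq2 (1.42.0) size factors and Wald test, edgeR's quasi-likelihood test, other filters, unrounded counts, TPM with pseudocounts of 1 and 0.1, fits of 2 lines, a replicate block, a fold limit and leaving out each library were run.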

Additional observations from a re-analysis of the deposited data

Results flagged for a closer look

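Of 80 sets of 5 libraries (each imprinted gene in each line where a library held at least 10 counts), 6 had a library set apart from the other 4 by Dixon's ratio at its 95% critical value of 0.71. Chance alone flags about 1 in 20 such sets.

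Plagl1 in WT31 replicate 4 was at 5.42 CPM, 141 counts, where the nearest library was at 0.912 CPM. Mest in HCmel12 replicate 4 was at 36.7 CPM against 92.8 CPM in the nearest library, and Sgce in the same library was at 159 CPM against 122 CPM. This library stood apart beyond imprinted genes, since 9 genes exceeded 100 counts there with at most 30 in the other 4 HCmel12 libraries, while every other library had at most 2 such genes. Sgce in RET replicate 2 was at 79.5 CPM against 87.1 CPM. Slc22a18 in D4M replicate 1 was at 0.919 CPM, 20 counts, against 15 counts in each other D4M library, and Kcnq1 in D4M replicate 5 was at 0.894 CPM, 21 counts, against 10 counts.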

How the results depend on the processing

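Of the 157 called comparisons, 148 stayed called without each single library and 9 were lost without at least 1. Dlk1 in B16F10 luc2 against RET, which rests on 2 to 4 counts, was lost without any of 22 libraries. The others, with the largest adjusted p and the library left out, were Dlk1 in B16F10 luc2 against HCmel12 (0.0724, HCmel12 replicate 4), H19 in WT31 against HCmel12 (0.0993, HCmel12 replicate 3), Igf2r in RET against HCmel12 (0.134, RET replicate 1), Peg10 in B16F10 luc2 against HCmel12 (0.148, HCmel12 replicate 4), Sgce in WT31 against D4M (0.1, WT31 replicate 1), Ppp1r9a in WT31 against RET (0.0835, WT31 replicate 2), Kcnq1ot1 in WT31 against HCmel12 (0.0771, HCmel12 replicate 4) and Ube3a in WT31 against RET (0.111, WT31 replicate 4). Replicate numbers did not pair the samples, since the correlation of same-numbered deviations lay between -0.09 and 0.10 and 6 of 25 libraries were most like one of their own number, and with a replicate block 157 of 157 calls were kept.

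Commonly lower genes in HIM-melanoma numbered 0 with scaling by library size alone (which moved D4M by 0.15 to 0.23 in log2), 0 on TPM without a filter, 0 with a limit of 1 on the size of the log2 fold change, and 2 without a filter, with the replicate block, and without D4M replicate 1 and HCmel12 replicate 4. Without single libraries they numbered 1 to 2, with 2 without D4M replicate 3, where Snrpn joined Impact. In HCmel12 Snrpn held at most 1.25 counts, under the limit of detection. Commonly higher genes numbered 0 with at least 10 counts in every library and with the fold limit. With at least 10 counts in every library 10 genes were left to test, 10 passed the F test, 2 had a range of at least 10-fold, and 7, 8, 8 and 9 were called for WT31 against B16F10 luc2, RET, D4M and HCmel12, 6, 8 and 9 for B16F10 luc2 against RET, D4M and HCmel12, 9 and 7 for RET against D4M and HCmel12, and 8 for D4M against HCmel12. The fold limit left 8 calls in WT31 against RET, WT31 against HCmel12 and B16F10 luc2 against HCmel12. The count with a range of at least 10-fold was 5 of 16 tested on log2(TPM + 1), 6 of 21 on that scale without a filter, 9 of 16 on log2(TPM + 0.1) and 12 with the DESeq2 Wald test. Shares of all genes under these alternative settings are not given, so that the counts show only how the calls of these genes moved. Gnas in RET against D4M reversed to 0.064 with library size alone, and Ube3a in RET against D4M to 0.28 (TPM + 1, with or without filter) and 0.29 (TPM + 0.1). The cause was not tested.

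Depth limits the 12 untested genes, each at or under 21 counts in any library.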

Other observations

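Nespas, the antisense transcript of the Gnas locus, was looked at after its values had been seen. It held 11 to 16 counts in WT31 and 9 to 24 in D4M and 0 in every library of B16F10 luc2, RET and HCmel12. These are the same lines in which Grb10 was at most at 6 counts. No share over all genes is given for this pattern. Gnas itself differed by at most 1.42-fold between line means.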
